A study of Mus musculus with 10 samples.

Results

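The granulosa cell identity genes are 10 genes that define, or act in, the cells lining the ovarian follicle: Foxl2, Fshr, Lhcgr, Amh, Amhr2, Gata4, Gata6, Wt1, Foxo1 and Greb1. They were taken as a named list, chosen with earlier results of these data known. Of the 10, 9 were each read by 1 probe set that carries a single gene symbol, among 19938 genes measured in that way. Lhcgr, the receptor for luteinizing hormone, was named by no such probe set, and its level is not analysed here. The samples were granulosa cells of immature mice on whole-transcript microarrays, as 5 pools from PRKO mice and 5 pools from PR+/- mice. PRKO mice carried a lacZ insertion (PRlacZ) in both copies of the progesterone receptor gene Pgr, and the PR+/- controls carried the same insertion in 1 copy, so no group was free of it. The insertion is in the germline and is not limited to granulosa cells. All animals were 21 to 23 days old at the first injection, of 5 IU equine chorionic gonadotropin (eCG), which makes follicles grow. An injection of 5 IU human chorionic gonadotropin (hCG), which acts as an LH surge, followed 44 to 47 h later. Cells came from antral follicles punctured 8 h after hCG, and each pool held the cells of 3 animals, from 15 animals per genotype.

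Granulosa cells respond to follicle-stimulating hormone through its receptor FSHR, and growing follicles signal through anti-Müllerian hormone (AMH) and its receptor AMHR2. Their identity as ovarian cells rests on transcription factors, among them FOXL2, which keeps testis genes off, and the GATA factors, which switch on steroid and inhibin genes. After the LH surge the cells leave the proliferating, FSH-dependent state and start to turn into luteal cells, and FSHR and FOXO1 are known to decline in that transition.

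Several of these genes moved together between pools, so the starts of the genes in the pairs with the highest correlations are shown, as far as the RefSeq promoter table holds them. It held 6 of the 10 genes, in build GRCm38.p6, and the 250 bases upstream of the start are printed 5′ to 3′ on the gene's strand for 4 of them. The windows are chr17:89200676-89200925 (minus strand) for Fshr, chr3:52268087-52268336 (plus strand) for Foxo1, chr9:98955357-98955606 (plus strand) for Foxl2 and chr15:102445117-102445366 (plus strand) for Amhr2. Capitals mark matches, on either strand, to the motifs searched.
Fshr: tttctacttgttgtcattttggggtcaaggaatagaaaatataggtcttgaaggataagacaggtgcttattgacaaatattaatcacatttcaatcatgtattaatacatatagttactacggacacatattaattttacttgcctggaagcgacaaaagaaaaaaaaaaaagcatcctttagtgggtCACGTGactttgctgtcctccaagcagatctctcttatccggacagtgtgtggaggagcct
Foxo1: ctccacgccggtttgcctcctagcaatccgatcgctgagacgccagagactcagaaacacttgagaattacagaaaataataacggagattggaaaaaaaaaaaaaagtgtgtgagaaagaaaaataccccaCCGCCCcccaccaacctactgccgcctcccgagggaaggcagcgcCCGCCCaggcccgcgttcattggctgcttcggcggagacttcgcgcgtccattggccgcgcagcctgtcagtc
Foxl2: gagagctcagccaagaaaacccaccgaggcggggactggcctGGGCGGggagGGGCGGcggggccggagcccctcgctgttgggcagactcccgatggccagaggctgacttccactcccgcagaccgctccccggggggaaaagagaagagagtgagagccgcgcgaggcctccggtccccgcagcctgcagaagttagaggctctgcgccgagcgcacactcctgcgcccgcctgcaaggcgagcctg
Amhr2: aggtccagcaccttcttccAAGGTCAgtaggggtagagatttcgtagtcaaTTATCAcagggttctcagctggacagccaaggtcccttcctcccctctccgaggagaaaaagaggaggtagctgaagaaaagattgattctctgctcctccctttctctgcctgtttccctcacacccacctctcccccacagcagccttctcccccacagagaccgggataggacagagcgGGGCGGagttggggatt
The motifs were the GATA core in the forms TGATAA and AGATAA, the nuclear receptor half-site AAGGTCA, the forkhead core TGTTTAC, the E-box CACGTG, the GC box GGGCGG and the progesterone receptor half-site TGTTCT. Of 27025 promoters of the same length, 8.16% held TGATAA, 10.3% AGATAA, 4.05% AAGGTCA, 3.09% TGTTTAC, 6.05% CACGTG, 32.9% GGGCGG and 16.2% TGTTCT. The Fshr window held 1 match, the E-box 61 to 56 bases upstream of the start. The Foxo1 and Foxl2 windows held 2 GC boxes each. The Amhr2 window held AAGGTCA at 231 to 225 bases upstream, TGATAA on the opposite strand at 199 to 194 bases, and a GC box at 17 to 12 bases. The Fshr and Foxo1 windows, whose genes moved together most closely, shared no motif of those searched. The base composition of the windows ran from 36.8% G and C in Fshr to 70.8% in Foxl2, against a median of 52.0% over all promoters. A match describes letters and does not show that a factor binds there.

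The values were log2 expression values as the authors deposited them, so a difference of 1 is a doubling of signal. Array medians lay between 6.48 and 6.55, and arrays correlated at 0.973 to 0.992 with one another. Precision is set by the number of arrays, 5 per genotype. The targeted gene Pgr read 6.91 ± 0.70 in the controls and 6.45 ± 0.32 in PRKO pools (SD, n = 5, limma adjusted p = 0.527). No source used here places its probes relative to the insertion, so they do not check the genotype labels. Background was set at 5.86, the 95th percentile of 1027 olfactory receptor genes. The lowest value of any identity gene in any pool was 6.99, so all 9 were above that background in all 10 pools. As these are bulk samples, fewer cells of a type and less RNA per cell cannot be told apart. Probe sets differ in brightness for reasons of their own, so levels are compared between pools and not between genes.

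None of the 9 measured identity genes differed between the genotypes past the threshold when p-values from limma were adjusted by Benjamini-Hochberg over every gene tested and held to 0.05, which 2.46% of all genes passed. Without adjustment, 4 of 9 had a p under 0.05 (Foxl2, Fshr, Amhr2 and Gata4), against 13.0% of all genes. The means were higher in PRKO for 7 genes and lower for 2, Fshr and Wt1, with a median log2 difference of 0.14 over the 9 genes and of -0.02 over all genes. In 0 of 9 did the PRKO pools lie apart from all PR+/- pools, which held for 4.42% of all genes. By exact two-sided permutation of the 10 pools, Foxl2 and Amhr2 had an unadjusted p under 0.05. That test was run for the identity genes only, so no share of all genes stands beside it.

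**Figure D1:**
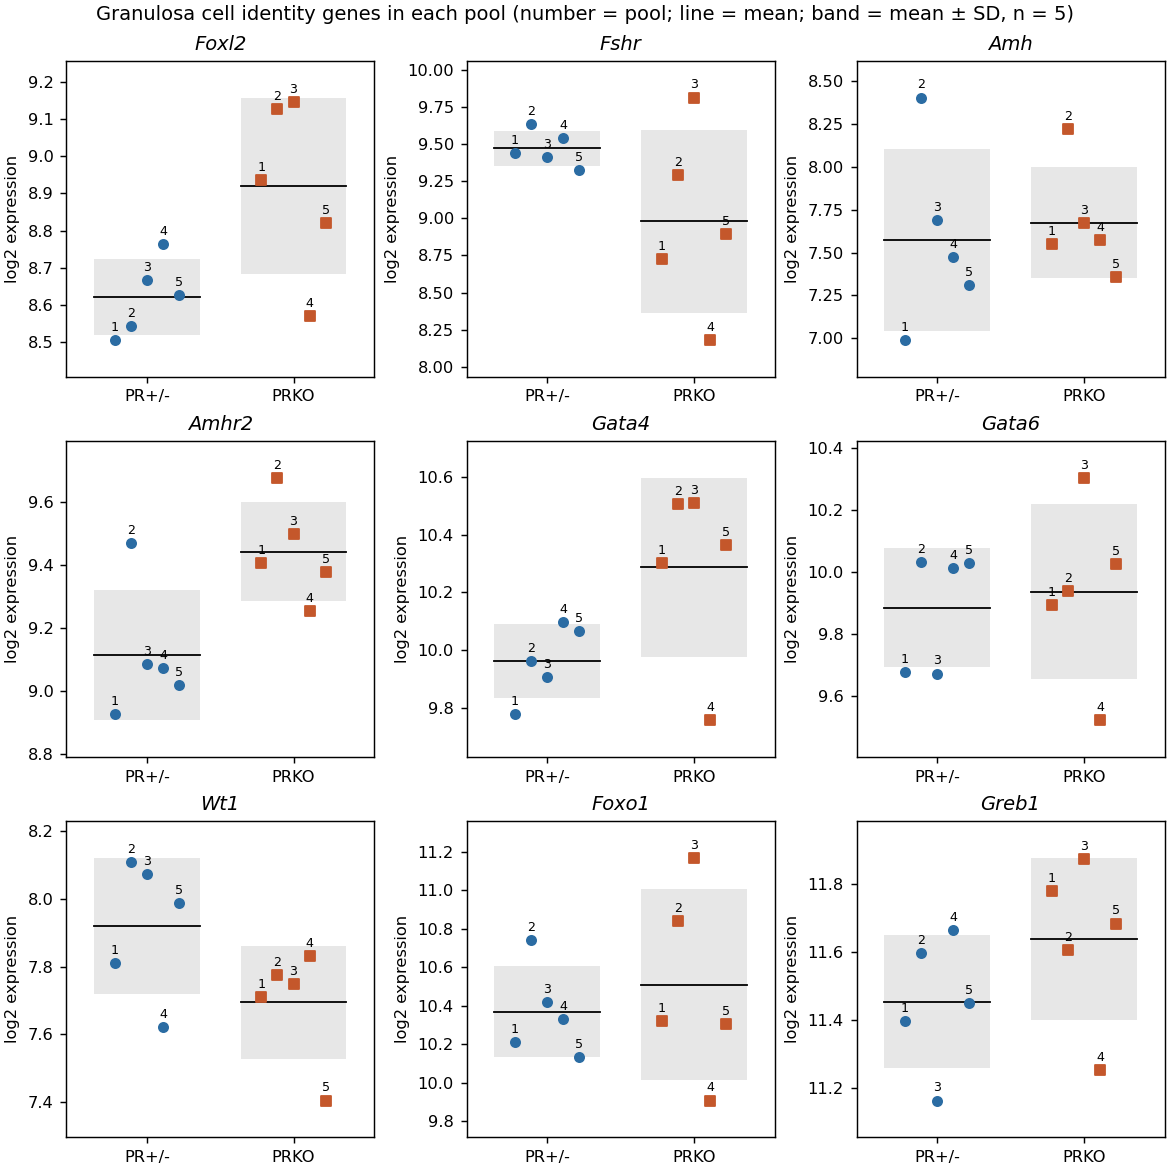
Log2 expression (vertical axis, scaled per gene) of the 9 measured identity genes in each of 5 PR+/- and 5 PRKO pools, with each point numbered by its pool, a line at the genotype mean and a band of 1 SD to each side. PRKO pool 4 is the lowest PRKO pool in 7 genes, and the genotypes overlap in all 9.

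Fshr, the receptor for follicle-stimulating hormone, had the largest difference in means of the set and the largest spread. PR+/- pools 1 to 5 read 9.44, 9.64, 9.41, 9.54 and 9.33, and PRKO pools 1 to 5 read 8.72, 9.29, 9.81, 8.18 and 8.89. The controls lay close together, while 4 PRKO pools were below all of them and PRKO pool 3 was above all of them. The log2 difference (PRKO minus PR+/-) was -0.49 (SE 0.22, 95% interval -0.96 to -0.02, limma adjusted p = 0.361, exact permutation p = 0.119), or 1.41-fold lower. Without PRKO pool 3, the difference was -0.70 and passed (adjusted p = 0.0449), where 2.41% of all genes passed. Without PRKO pool 4 it was -0.29 (adjusted p = 0.532). Of the fits that left out a single pool, only that without PRKO pool 3 passed. The SD of Fshr was 0.12 in PR+/- and 0.61 in PRKO, a difference in spread that was not tested.

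Amhr2, the type 2 receptor for AMH, was higher in most PRKO pools. The PR+/- pools 1 to 5 read 8.93, 9.47, 9.09, 9.07 and 9.02, and PRKO pools 1 to 5 read 9.41, 9.68, 9.50, 9.25 and 9.38. PR+/- pool 2 reached into the PRKO range, and the other 4 control pools lay below all 5 PRKO pools. Its log2 difference was 0.33 (SE 0.11, 95% interval 0.10 to 0.55, limma adjusted p = 0.158, exact permutation p = 0.0317), or 1.25-fold. Without PR+/- pool 2 it was 0.42 and passed (adjusted p = 0.0263), where 2.45% of all genes passed. No other fit that left out a single pool passed.

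Amh, the ligand of that receptor and a product of granulosa cells of growing follicles, had a smaller and less precise difference between genotypes. In order, PR+/- pools 1 to 5 read 6.99, 8.40, 7.69, 7.48 and 7.31, and PRKO pools 1 to 5 read 7.55, 8.22, 7.67, 7.57 and 7.36. Pool 2 was the highest of its genotype in both, and all PRKO pools lay within the control range. The genotypes differed by 0.10 on the log2 scale (SE 0.22, 95% interval -0.37 to 0.57, limma adjusted p = 0.897). That interval includes the 0.33 of Amhr2, and the difference between ligand and receptor was not tested.

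Foxl2, the forkhead factor that maintains ovarian identity, read 8.50, 8.54, 8.67, 8.76 and 8.63 in PR+/- pools 1 to 5 and 8.94, 9.13, 9.15, 8.57 and 8.82 in PRKO pools 1 to 5. In 4 PRKO pools it was above every control, and PRKO pool 4 lay among the controls. On average the log2 difference was 0.30 (SE 0.10, 95% interval 0.07 to 0.52, limma adjusted p = 0.213, exact permutation p = 0.0397), or 1.23-fold. Without PRKO pool 4 it was 0.39 and passed (adjusted p = 0.0416), where 2.12% of all genes passed. No other fit that left out a single pool passed.

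Gata4, a zinc finger factor that activates genes of steroid synthesis, had the same pattern. PR+/- pools 1 to 5 read 9.78, 9.96, 9.91, 10.10 and 10.07, and PRKO pools 1 to 5 read 10.30, 10.50, 10.51, 9.76 and 10.37. PRKO pool 4 was the lowest of all 10 pools, and the other 4 PRKO pools were above all controls. Their means gave a log2 difference of 0.32 (SE 0.13, 95% interval 0.05 to 0.60, limma adjusted p = 0.278, exact permutation p = 0.0714). Without PRKO pool 4 it was 0.46 and passed (adjusted p = 0.0117), where 2.12% of all genes passed. No other fit that left out a single pool passed.

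Gata6, which acts beside GATA4 in granulosa cells, had nearly equal means. Its PR+/- pools 1 to 5 read 9.68, 10.03, 9.67, 10.01 and 10.03, and PRKO pools 1 to 5 read 9.89, 9.94, 10.30, 9.52 and 10.02. PRKO pools 3 and 4 were the highest and the lowest of all 10. Its log2 difference was 0.05 (SE 0.13, 95% interval -0.23 to 0.33, limma adjusted p = 0.914).

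Foxo1, a forkhead factor that growth factor and FSH signals remove from the nucleus, varied widely between pools. The control (PR+/-) pools 1 to 5 read 10.21, 10.74, 10.42, 10.33 and 10.13, and PRKO pools 1 to 5 read 10.32, 10.84, 11.17, 9.91 and 10.31. Pool 2 was high in both genotypes, and PRKO pools 3 and 4 were again the highest and the lowest of all. The log2 difference was 0.14 (SE 0.20, 95% interval -0.28 to 0.56, limma adjusted p = 0.821).

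Wt1, a zinc finger factor known from early follicles, was 1 of the 2 genes with a lower mean in PRKO. PR+/- pools 1 to 5 read 7.81, 8.11, 8.07, 7.62 and 7.99, and PRKO pools 1 to 5 read 7.71, 7.77, 7.75, 7.83 and 7.40. PRKO pool 5 was below every control, and the other 4 PRKO pools lay within the control range. The log2 difference was -0.23 (SE 0.11, 95% interval -0.45 to 0.00, limma adjusted p = 0.387).

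Greb1, known in human breast cancer cells as an estrogen-induced cofactor of the estrogen receptor, read 11.40, 11.60, 11.16, 11.66 and 11.45 in PR+/- pools 1 to 5. PRKO pools 1 to 5 read 11.78, 11.61, 11.87, 11.25 and 11.68. In 3 PRKO pools it was above every control, and PRKO pool 4 was again the lowest of its genotype. The log2 difference was 0.19 (SE 0.12, 95% interval -0.07 to 0.44, limma adjusted p = 0.567). It was 0.11 without PR+/- pool 3 and 0.28 without PRKO pool 4.

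**Figure D2:**
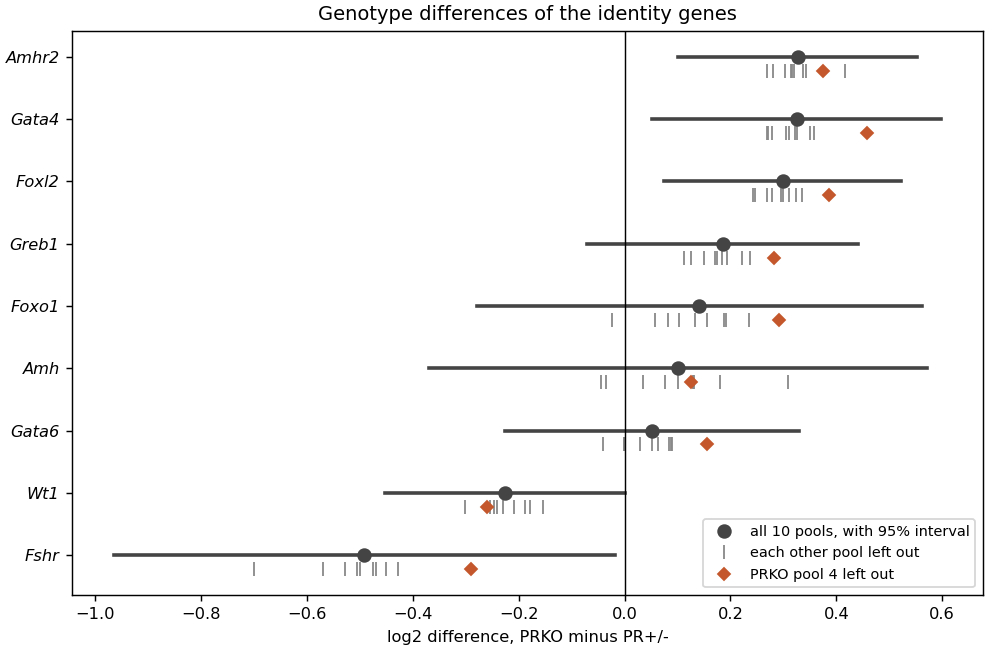
Log2 difference, PRKO minus PR+/- (horizontal axis), of the 9 measured identity genes. Circles and bars are the value and 95% interval over all 10 pools, diamonds the value without PRKO pool 4 and ticks the values without each other pool. Leaving out PRKO pool 4 moves Gata4 from 0.32 to 0.46 and Fshr from -0.49 to -0.29.

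The identity genes varied more between pools of 1 genotype than most genes did. The comparison is with all genes tested, dim ones included, and not with genes of like brightness. The residual SD within genotype was above the all-gene median of 0.14 in 9 of 9 genes and above the upper quartile of 0.18 in 8 of 9. It was 0.44 for Fshr and for Amh and 0.39 for Foxo1, sizes that 0.587%, 0.612% and 1.17% of all genes exceeded. In 6 of 9 genes the SD was larger in PRKO, as it was in 56.8% of all genes.

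The same pools stood at the ends of several genes. PRKO pool 4 was the lowest of its genotype in 7 genes (Foxl2, Fshr, Amhr2, Gata4, Gata6, Foxo1 and Greb1) and the highest in Wt1. PRKO pool 3 was the highest of its genotype in 6 genes (Foxl2, Fshr, Gata4, Gata6, Foxo1 and Greb1). PR+/- pool 2 was the highest control in 6 genes, among them Amh, Amhr2 and Foxo1, and PR+/- pool 1 lay below the control mean in all 9. The median deviation from the genotype mean over the 9 genes was -0.39 in PRKO pool 4 and 0.23 in PRKO pool 3, on the log2 scale.

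**Figure D3:**
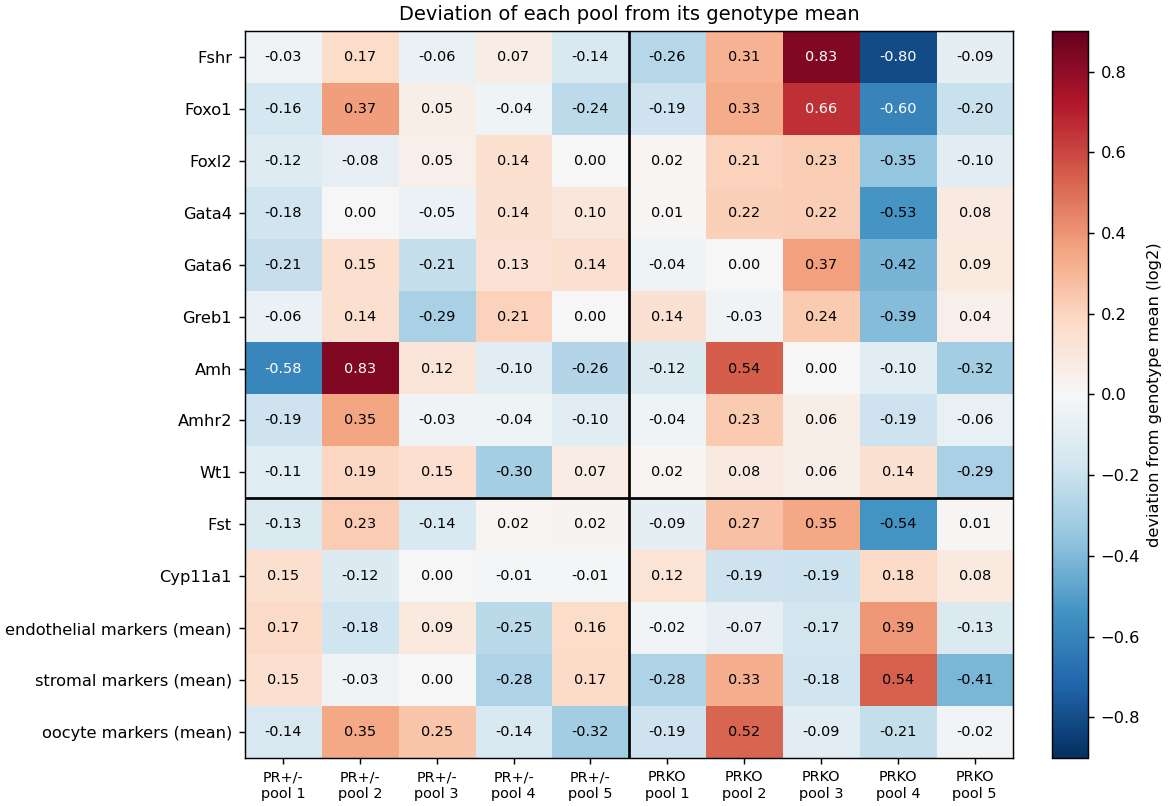
Deviation of each pool (columns) from its genotype mean, in log2 units, for the 9 identity genes (upper rows), 2 genes of the LH response and the mean of 3 marker lists of other cells (lower rows). PRKO pool 4 is low in 7 identity genes and high in the endothelial and stromal means, and pool 2 of both genotypes is high in Amh, Amhr2 and the oocyte mean.

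Covariation was measured over the 10 pools as deviations from the genotype mean, since 5 pools of 1 genotype are too few for a correlation of their own. Of the 36 pairs among the 9 genes, 31 had a positive Pearson r, with a median of 0.56. In 6 pairs r passed an adjusted p of 0.05 (exact permutation within genotype, two-sided, adjusted over the 36 pairs), and in 13 the unadjusted p was under 0.05. By Spearman rho, 0 pairs passed, the smallest adjusted p being 0.064. The 6 pairs linked Foxl2, Gata4, Gata6 and Greb1 in a chain, and Fshr, Foxo1, Amhr2 and Amh in another. These chains follow from the threshold and are not separate groups. Across them r was 0.83 for Foxl2 and Fshr and 0.80 for Fshr and Gata4, above the 0.75 of Amhr2 and Foxo1. Within a chain, Fshr and Amh had r = 0.31.

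Fshr and Foxo1 had the highest correlation of any pair (r = 0.94, exact permutation p = 0.000903, adjusted p = 0.0325, rho = 0.92 with exact permutation p = 0.00264, n = 10 pools). The SD was 0.12 in PR+/- and 0.61 in PRKO for Fshr, and 0.24 and 0.50 for Foxo1. The PRKO pools therefore weigh most in this r. Without the 2 pools farthest from the median of Fshr, PRKO pools 3 and 4, r was 0.87. Among the 19937 other genes, ordered by their r with Fshr, Foxo1 was the 16th. Fshr and Foxo1 thus ranked the pools alike although their genotype differences had opposite signs, -0.49 for Fshr and 0.14 for Foxo1.

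Amh and Amhr2, ligand and receptor, were the second pair (r = 0.93, exact permutation p = 0.00208, adjusted p = 0.0375, rho = 0.83 with exact permutation p = 0.00833, n = 10 pools). Amhr2 was 8th among all other genes in its r with Amh. Without the 2 pools farthest from the median of Amh, r was 0.63. Amhr2 and Foxo1 joined this pair to Fshr (r = 0.75, exact permutation p = 0.00722, adjusted p = 0.0433, rho = 0.87 with exact permutation p = 0.00361, n = 10 pools), and r was 0.82 without the 2 farthest pools. Foxo1 was the 432nd of all other genes for Amhr2.

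Foxl2 and Gata4 had r = 0.90 (exact permutation p = 0.00368, adjusted p = 0.0375, rho = 0.82 with exact permutation p = 0.00882, n = 10 pools), and 0.71 without the 2 farthest pools. Here too the PRKO pools weigh more, with an SD of 0.24 against 0.10 in PR+/- for Foxl2 and 0.31 against 0.13 for Gata4. The paralogues Gata4 and Gata6 had r = 0.85 (exact permutation p = 0.00451, adjusted p = 0.0375, rho = 0.72 with exact permutation p = 0.0260), and 0.64 without the 2 farthest pools. Gata6 and Greb1 had r = 0.87 (exact permutation p = 0.00521, adjusted p = 0.0375, rho = 0.85 with exact permutation p = 0.00889), and 0.72 without the 2 farthest pools. Gata4 was 42nd among all other genes for Foxl2, Gata6 114th for Gata4 and Greb1 40th for Gata6.

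Wt1 stood apart. Its r with the other 8 genes ran from -0.39 with Greb1 to 0.56 with Amh, 5 of the 8 were negative, and the smallest exact permutation p was 0.116. The 28 pairs without Wt1 were all positive, with a median r of 0.68. For comparison, the 95th percentile of r between an identity gene and all other genes lay between 0.58 for Greb1 and 0.69 for Foxo1.

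**Figure D4:**
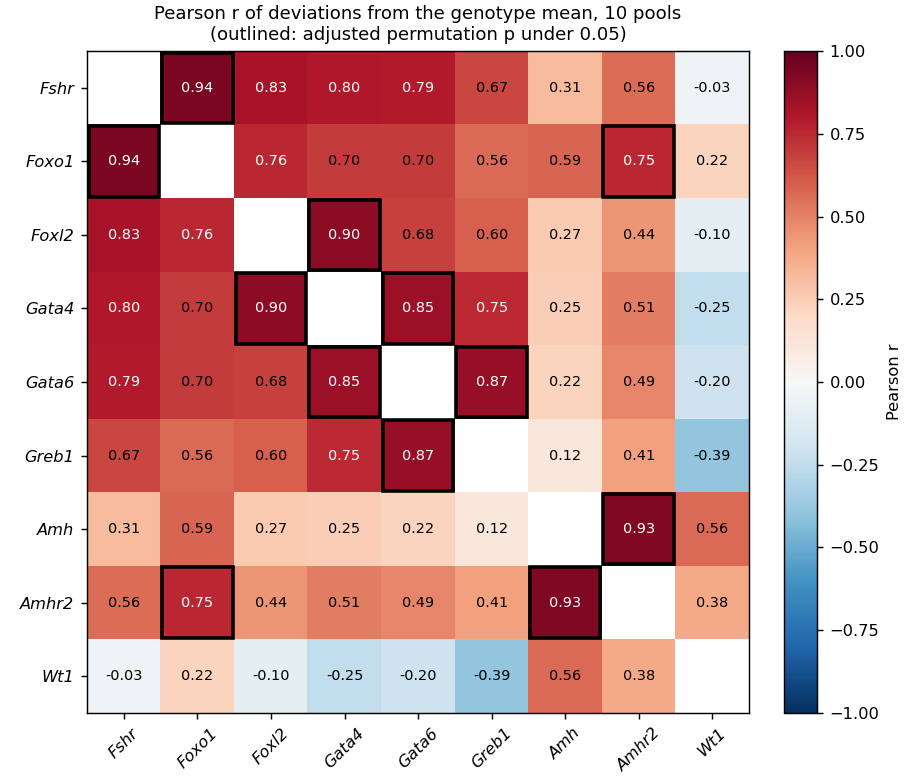
Pearson r (colour and printed value) of the deviations from the genotype mean between each pair of the 9 identity genes over 10 pools. Outlined squares are the 6 pairs with an adjusted permutation p under 0.05, and Wt1, in the last row, is negative with 5 of the other 8 genes.

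**Figure D5:**
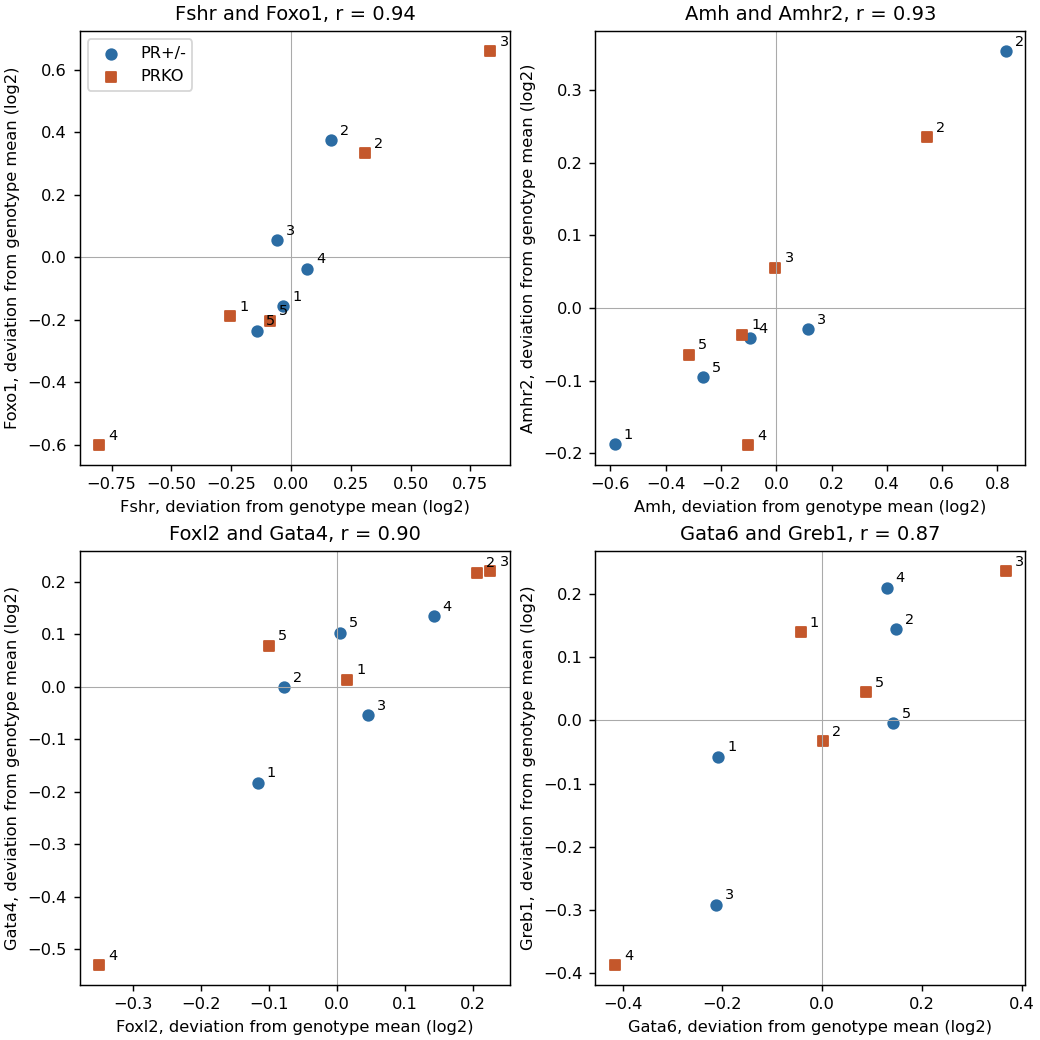
Deviations from the genotype mean (log2, both axes) of 4 pairs of identity genes, with each point 1 pool, numbered within its genotype. PRKO pools 3 and 4 lie at opposite ends in the Fshr and Foxo1 panel, where r is 0.94, and pool 2 of both genotypes lies at the upper end in the Amh and Amhr2 panel, where r is 0.93.

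The calls of these 6 pairs changed with the pools kept, and a fit with a pool left out has fewer arrangements to permute. Leaving out each pool in turn left 0 pairs past the threshold when the pool was PR+/- 1, 2 or 4, or PRKO 2 or 3, then 1 without PRKO pool 4 or 5, 2 without PR+/- pool 3, 3 without PRKO pool 1 and 6 without PR+/- pool 5. Some calls were lost although r rose. Without PR+/- pool 2, r of Fshr and Foxo1 was 0.97 (exact permutation, adjusted p = 0.0589). Without PR+/- pool 1, r of Gata6 and Greb1 was 0.89 (exact permutation, adjusted p = 0.0729). Across all fits with a pool left out, r of Fshr and Foxo1 stayed between 0.90 and 0.97 and that of Amh and Amhr2 between 0.83 and 0.98. The other 4 pairs fell lower, with a lowest r of 0.75 for Foxl2 and Gata4, 0.70 for Amhr2 and Foxo1, 0.74 for Gata4 and Gata6 and 0.76 for Gata6 and Greb1. Without PRKO pools 3 and 4, an alternative chosen after seeing the data, 0 pairs passed and r of Fshr and Foxo1 was 0.87, of Foxl2 and Gata4 0.72, of Gata6 and Greb1 0.72 and of Amh and Amhr2 0.98.

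The deviations of the identity genes were set beside 9 genes of the response to LH, since pools may differ in how far the response had gone. Of 81 pairs, 0 passed the adjusted threshold (smallest adjusted p = 0.0577, exact permutation), by Spearman rho 0 passed, and 15 had an unadjusted p under 0.05. The 3 pairs with the smallest p involved Fst, which encodes the activin-binding protein follistatin, and Cyp11a1, the enzyme of the first step of steroid synthesis. Fst had r = 0.92 with Fshr (exact permutation p = 0.00160, rho = 0.76 with exact permutation p = 0.0383, r = 0.80 without the 2 farthest pools). It had r = 0.87 with Gata6 (exact permutation p = 0.00174, rho = 0.88 with exact permutation p = 0.00264, r = 0.62 without the 2 farthest pools). Cyp11a1 ran the other way, with r = -0.79 against Amhr2 (exact permutation p = 0.00243, rho = -0.79 with exact permutation p = 0.0127, r = -0.82 without the 2 farthest pools). All 3 had an adjusted p of 0.0577 over the 81 pairs, and so did Foxo1 with Cyp11a1. That pair had r = -0.91 (exact permutation p = 0.00285, rho = -0.79 with exact permutation p = 0.0249, r = -0.85 without the 2 farthest pools). Fst was also on the list of granulosa genes outside the set. By Pearson r over all 10 pools, the other LH genes ran less closely with Fshr, with r of 0.03 for Pgr, 0.09 for Btc and -0.01 for Has2. It was -0.14 for Ptgs2, -0.15 for Tnfaip6, -0.33 for Ereg and -0.60 for Star. For Star, rho with Fshr was -0.85 (exact permutation p = 0.0249). Without the 2 farthest pools, r with Fshr was -0.89 for Star and -0.74 for Ptgs2. It was then -0.44 for Ereg, -0.25 for Tnfaip6, 0.12 for Btc, -0.04 for Pgr and -0.03 for Has2. With Gata6, r was 0.56 for Pgr and 0.57 for Btc. With 1 pool left out, 3 pairs passed without PR+/- pool 5, 1 each without PR+/- pool 2, PRKO pool 2 or PRKO pool 5, and 0 without any of the other 6.

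Markers of other cells also differed between pools. The markers above background were 9 of 10 for oocytes, with Gdf9, Bmp15 and Zp1 to Zp3 among them, 5 of 6 for endothelium, 6 of 8 for stroma, 4 of 4 measured for theca, 4 of 8 for leukocytes, 2 of 2 measured for erythroid cells and 5 of 6 for surface epithelium. Of the 44 markers measured in these 7 lists, 0 differed between genotypes past the threshold (limma), against 2.46% of all genes. An unadjusted p under 0.05 was found for 3, against 13.0% of all genes. The mean of the oocyte markers was 7.95 in PR+/- pool 2 and 8.04 in PRKO pool 2, against 7.29 to 7.86 in the other PR+/- pools and 7.31 to 7.50 in the other PRKO pools. These were the pools highest in Amh and Amhr2. The oocyte mean had r = 0.81 with Amh (exact permutation p = 0.010, rho = 0.68 with exact permutation p = 0.0487, r = 0.45 without the 2 farthest pools). With Amhr2 it had r = 0.80 (exact permutation p = 0.00535, rho = 0.79 with exact permutation p = 0.0149, r = 0.36 without the 2 farthest pools), and both adjusted p were 0.147 over 63 relations. With the oocyte mean removed by regression, an alternative chosen after seeing the data, 1 of the 36 pairs passed, Amhr2 and Foxo1, with r = 0.60 (exact permutation, adjusted p = 0.0075). The pairs Fshr and Foxo1, Foxl2 and Gata4, Gata4 and Gata6, and Gata6 and Greb1 missed the threshold narrowly (adjusted p = 0.0511) at r of 0.96, 0.89, 0.88 and 0.88, about as large as before removal. The r of Amh and Amhr2 was 0.80 (adjusted p = 0.0720).

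The mean of the endothelial markers was 7.12 in PRKO pool 4, against 6.57 to 6.71 in the other PRKO pools and 6.54 to 6.96 in the PR+/- pools. The stromal mean in PRKO pool 4 was 8.30, against 7.35 to 8.09 in the other PRKO pools and 7.38 to 7.83 in the controls. The surface epithelium mean was also highest there, at 7.70, against 6.82 to 7.28 in the other PRKO pools and 6.72 to 7.24 in the controls. This was the pool lowest in 7 identity genes and the PRKO pool highest in Wt1. The endothelial mean was negatively related to Greb1 (r = -0.84, exact permutation p = 0.0117, rho = -0.85 with exact permutation p = 0.00813, r = -0.76 without the 2 farthest pools). For Gata4 r was -0.80 (exact permutation p = 0.0233, rho = -0.64 with exact permutation p = 0.0499), and -0.34 without the 2 farthest pools. For Gata6 r was -0.79 (exact permutation p = 0.0230, rho = -0.72 with exact permutation p = 0.036), and -0.60 without the 2 farthest pools. For Fshr r was -0.72 (exact permutation p = 0.00910, rho = -0.65 with exact permutation p = 0.0241), and -0.44 without the 2 farthest pools. The r with the endothelial mean was -0.69 for Foxl2 and for Foxo1, -0.62 for Amhr2, -0.39 for Amh and 0.38 for Wt1. Wt1 was positively related to the surface epithelium mean (r = 0.77, exact permutation p = 0.00743, rho = 0.59 with exact permutation p = 0.0719), and r was 0.28 without the 2 farthest pools. Its r was 0.64 with the leukocyte mean (exact permutation p = 0.0454, rho = 0.47 with exact permutation p = 0.160, r = 0.28 without the 2 farthest pools). With the stromal mean it was 0.59 (exact permutation p = 0.0490, rho = 0.60 with exact permutation p = 0.0524, r = 0.14 without the 2 farthest pools). None of the 63 relations passed adjustment, the smallest adjusted p being 0.147. The part of other cells in the differences and correlations of the identity genes was not tested.

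Other genes of the granulosa programme gave no calls in the genotype contrast. Of 15 measured granulosa genes outside the set, 0 rose and 0 fell, against 2.46% of all genes called, and 4 had an unadjusted p under 0.05, against 13.0% of all genes. Their median log2 difference was 0.11, and that of all genes was -0.02. The 3 with the smallest p were Inha, the inhibin alpha subunit (0.24, SE 0.08, limma adjusted p = 0.148), Hsd17b1, which makes estradiol (0.56, SE 0.19, adjusted p = 0.193), and Inhba, the inhibin beta A subunit (0.60, SE 0.22, adjusted p = 0.233). All 3 had higher means in PRKO. The same shares of all genes, 2.46% called and 13.0% with an unadjusted p under 0.05, stand beside the counts of the lists that follow.

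Genes that carry the AMH and BMP signal inside the cell gave no calls, with 0 of 12 past the threshold, 1 with an unadjusted p under 0.05 and a median log2 difference of 0.00. The smallest p was that of Id3, a target of that signal (0.47, SE 0.13, limma adjusted p = 0.104), followed by Id1 (0.21, adjusted p = 0.434) and the signal carrier Smad1 (-0.14, adjusted p = 0.507).

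Among 14 measured genes that couple gonadotropin receptors to the cell, 1 fell and 0 rose, 4 had an unadjusted p under 0.05, and the median was 0.05. Arrb1, a beta-arrestin that uncouples and internalizes activated receptors, fell by 0.64 on the log2 scale (SE 0.11, limma adjusted p = 0.00582), from 8.00 ± 0.27 to 7.37 ± 0.09 (SD, n = 5 pools each), and passed without each pool in turn. The regulatory subunits of protein kinase A had values of 0.48 for Prkar2b (adjusted p = 0.0536, and 0.0219 at the lowest with 1 pool left out, as it passed without PR+/- pool 2 or 4) and -0.33 for Prkar2a (adjusted p = 0.0957).

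Of 20 relatives and partners of the GATA, FOXO, WT1 and GREB1 proteins, 1 fell and 0 rose, 3 had an unadjusted p under 0.05, and the median was -0.02. Foxo3, the paralogue of Foxo1 known for holding oocytes of primordial follicles dormant, fell by 0.45 on the log2 scale (SE 0.08, limma adjusted p = 0.00553), from 9.36 ± 0.11 to 8.91 ± 0.12 (SD, n = 5 pools each), and passed without each pool in turn. Foxo1 had a value of 0.14 in the same contrast, and the difference between the paralogues was not tested. Cited2, a transcriptional coregulator that binds p300 and CBP, had -0.21 (adjusted p = 0.248), and Akt1, a kinase that inactivates FOXO proteins, 0.22 (adjusted p = 0.252).

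The testis genes that FOXL2 opposes gave 0 calls of 10, with 1 unadjusted p under 0.05 and a median of 0.00. The 3 with the smallest p were Dhh, a hedgehog ligand (0.39, SE 0.12, limma adjusted p = 0.149), Fgf9 (0.13, adjusted p = 0.514) and Gdnf (-0.16, adjusted p = 0.593). Of 9 measured luteal genes, 1 rose and 0 fell, 4 had an unadjusted p under 0.05, and the median was 0.11. It was Timp1, an inhibitor of matrix proteases, with a difference of 0.55 (SE 0.13, adjusted p = 0.0406), and it passed in 2 of the 10 fits that left out 1 pool, those without PR+/- pool 1 and without PRKO pool 3 (adjusted p 0.0116 to 0.113). Hsd3b1, which makes progesterone, had 0.49 (adjusted p = 0.0707, and 0.0442 without PR+/- pool 1), and Cdkn1b, a cell cycle inhibitor, 0.29 (adjusted p = 0.190).

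The 9 measured genes of the LH response gave 0 calls, 2 with an unadjusted p under 0.05 and a median of -0.06, with Has2, the hyaluronan synthase of the expanding cumulus, at -0.32 (SE 0.14, limma adjusted p = 0.331), Cyp11a1 at 0.21 (adjusted p = 0.331) and Star, which moves cholesterol into mitochondria, at -0.21 (adjusted p = 0.458). The 7 measured proliferation genes gave 0 calls, 1 with an unadjusted p under 0.05 and a median of 0.04. Pcna, the polymerase clamp, was at 0.27 (SE 0.09, limma adjusted p = 0.144, and 0.0439 without PR+/- pool 2), the cyclin Ccnd2 at 0.30 (adjusted p = 0.486) and the replication helicase gene Mcm2 at 0.07 (adjusted p = 0.826). The lists shared some genes. Star and Cyp11a1 were on the luteal and LH response lists, Nr0b1 on the testis and granulosa lists, and Fst on the granulosa and LH response lists. Over all genes tested, 150 rose and 341 fell.

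For each identity gene, the 3 other genes with the highest r over the 10 pools are named as a description, as the best of 19937. They were Zdhhc1 (0.98), Colgalt2 (0.97) and Atp5a1 (0.96) for Fshr, and Susd1 (0.99), Npr2 (0.98) and Cndp2 (0.98) for Foxo1. For Amh they were Wwc2 (0.95), Alpk3 (0.94) and Pde3a (0.94), and for Amhr2 they were Alpk3 (0.96), Ano4 (0.96) and Ccnb3 (0.96). Alpk3 was thus near both the ligand and its receptor, and the mean of Ccnb3 (3.96) was under the background of 5.86. Npr2 encodes the receptor for C-type natriuretic peptide, through which granulosa cells keep the oocyte in meiotic arrest.

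Gata4 was nearest to Vegfb (0.99), Wrap53 (0.97) and Xrcc1 (0.96), and Gata6 to Slfn9 (0.96), Rasd1 (0.95) and Socs2 (0.94). For Foxl2 the nearest genes were Capn5 (0.97), Myot (0.96) and Zfp687 (0.96), for Greb1 Zbtb22 (0.96), Hoxa9 (0.94) and Slbp (0.92), and for Wt1 Six4 (0.95), Atoh8 (0.93) and Cd8a (0.91). The means of Myot (5.38), Hoxa9 (5.10), Six4 (5.27) and Cd8a (5.68) were under the background. None of these nearest genes differed between genotypes past the threshold, Rasd1 having the smallest adjusted p (log2 difference 0.87, limma adjusted p = 0.0547).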

How the data were processed

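The log2 expression values were made and deposited by the authors. Tri Reagent was used for RNA and the arrays were hybridized with biotinylated cRNA, per the labels' protocols, and Partek is named in the submitters' processing notes. No source used here gives its version, background correction, normalization or summarization. Of 35557 probe sets, 21789 carried 1 symbol, 1621 several and 12147 none, and those with several or none were left out. Entrez IDs were matched to the RefSeq mouse gene table (21698 matched). Where a gene had several probe sets, the one with the highest mean was kept, leaving 19938 genes. No further normalization was applied, and 0 sample columns were unused.

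PRKO and PR+/- were compared with limma 3.58.1 in R 4.3.3 (equal weights, no block), with Benjamini-Hochberg adjustment over all 19938 genes. The adjusted p-values of genes come from limma. Each pool was a separate biological sample. Intervals are 95% intervals. Correlations used deviations from the genotype mean and exact permutation within genotype, with adjustment over 36 pairs (45 were planned, with Lhcgr), 81 pairs with LH response genes, or 63 relations with marker lists. The "farthest" pools are the 2 farthest from the median of the first gene of a pair. Both procedures were tested on simulated data.

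The identity genes, lists and tests were chosen with earlier results of these data known. Genes named are the identity genes, up to 3 genes of smallest p in each list, and the 3 genes of highest r with each identity gene (predicted and clone-named genes left out). Other settings tried were quantile normalization, median centring, a filter on dim genes, array weights, a robust prior, an intensity trend, a replicate block, other probe set choices, an adjusted p under 0.01, exact permutation, Spearman rho, removal of an olfactory receptor or oocyte mean, and leaving out pools. They were applied to the genes named from the lists as well, a choice made after seeing the data. Promoter sequences are from RefSeq, build GRCm38.p6. Python 3.11.15 with pandas 2.3.3 and matplotlib 3.10.9 served for tables and figures.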

Additional observations from a re-analysis of the deposited data

Results flagged for a closer look

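In 5 of 80 groups of 5 pools, 1 pool lay far from the other 4 for the size of the group's range, and chance alone gives about 1 in 20 such groups. The groups were the identity genes, the genes named from the lists and the means of the marker lists, each within 1 genotype. Gata4 read 9.76 in PRKO pool 4, against 10.30 to 10.51 in the other PRKO pools. Wt1 read 7.40 in PRKO pool 5, against 7.71 to 7.83. Id1, a target of the AMH and BMP signal, read 8.09 in PRKO pool 3, against 7.66 to 7.75. The mean of the endothelial markers was 7.12 in PRKO pool 4, against 6.57 to 6.71, and that of the oocyte markers was 8.04 in PRKO pool 2, against 7.31 to 7.50.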

How the results depend on the processing

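The intensity trend, robust prior, dim gene filter, replicate block and probe set choices leave the log2 difference of an identity gene unchanged. So do the threshold of 0.01 and exact permutation. A sign could change only with a normalization, array weights, the olfactory receptor covariate or a pool left out. The log2 differences of Foxl2, Fshr, Amhr2, Gata4, Wt1 and Greb1 kept their sign in those as well, and so under all 22 other settings. Those of Amh, Gata6 and Foxo1, all with adjusted p over 0.8, turned negative when single pools were left out (PR+/- pool 1 or PRKO pool 2 for Amh, PR+/- pool 1 or 3 or PRKO pool 3 for Gata6, PRKO pool 3 for Foxo1), with ranges of -0.045 to 0.31, -0.041 to 0.16 and -0.024 to 0.29, and Gata6 was -0.027 with array weights. The number of identity genes past the threshold was 0, and 0 to 2 without 1 pool, 1 (Amhr2) with the replicate block and 2 (Foxl2 and Amhr2) by unadjusted exact permutation. The share of all genes was 2.46%, 1.81% to 2.45% without 1 pool and 2.65% with the block. Exact permutation was not run over all genes. The number of all genes past the threshold was 491, 258 at an adjusted p under 0.01 and 360 to 488 without 1 pool, where fewer samples remained. Of 36 identity gene pairs, 6 passed, 0 to 6 without 1 pool, 0 by Spearman rho, 0 without PRKO pools 3 and 4, 1 with the oocyte mean removed (4 of the 6 stayed at r of 0.88 to 0.96 with adjusted p = 0.0511) and 0 with the replicate block, where 120 arrangements limit the p. Of 81 pairs with LH response genes, 0 passed, and 0 to 3 without 1 pool. The causes of these changes were not tested. The replicate numbers were not taken as pairs: same-numbered pools correlated at -0.10 to 0.32 in their deviations over all genes, and 5 of 10 pools correlated best with their own number. Among genes named from the lists, settings tried after seeing the data changed these calls. Timp1 was lost with the replicate block (adjusted p = 0.0551) and with the olfactory receptor mean as covariate (0.127). Hsd3b1 passed with quantile normalization (0.0498), array weights (0.0451) and the block (0.0199), Prkar2a with the block (0.0469) and the olfactory covariate (0.00343, log2 difference -0.44), Prkar2b without dim genes (0.0417) and with an intensity trend (0.0349), and Dhh with the block (0.0484). Arrays give no depth, and 5 pools per genotype limit what can be detected.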

Other observations

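A few genes of the same biology stood near the end of the ordering of all genes by their correlation with an identity gene. They were chosen after their values were seen, so they are given as values over the 10 pools with no test. Sgk1, a kinase that phosphorylates FOXO proteins, ran opposite to Foxo1 (r = -0.95, Spearman rho = -0.87), the 2nd lowest r of all genes with Foxo1, and r was -0.87 without the 2 pools farthest from the median of Foxo1. It read 10.04, 9.47, 9.73, 9.69 and 9.76 in PR+/- pools 1 to 5 and 9.98, 9.57, 9.38, 10.24 and 9.94 in PRKO pools 1 to 5, so that PRKO pool 4, lowest in Foxo1, was highest in Sgk1. With Fshr, Sgk1 had r = -0.89.

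Bmpr1b, a type 1 receptor for bone morphogenetic proteins that granulosa cells carry, ran with Foxo1 (r = 0.97, rho = 0.95, and r = 0.95 without the 2 farthest pools) and with Fshr (r = 0.90). Ptgfr, the receptor for prostaglandin F2α, which ends the life of the corpus luteum, ran opposite to Amhr2 (r = -0.94, rho = -0.96), the lowest r of all genes with Amhr2, and to Foxo1 (r = -0.89). Sgk1, Bmpr1b and Ptgfr had log2 differences of 0.08, 0.11 and -0.03 between the genotypes, with limma adjusted p of 0.863, 0.817 and 0.977.

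Cyp11a1 was negatively correlated with all 9 identity genes, from r = -0.91 with Foxo1 and -0.84 with Fshr to -0.29 with Wt1. Fst was positively correlated with 8 of them, from 0.47 with Amh to 0.92 with Fshr, and had r = -0.02 with Wt1.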
